A study of Mus musculus with 20 samples.

Results

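The genes of voltage-gated calcium channel subunits were followed across the 5 conditions of the study. The members are 10 genes listed by symbol and matched to the gene identifiers of the count table, which holds 55401 genes, 21897 of them protein-coding. They comprise 5 genes of pore-forming alpha1 subunits (Cacna1a, Cacna1b, Cacna1c, Cacna1e and Cacna1g), 3 of alpha2delta subunits (Cacna2d1, Cacna2d2 and Cacna2d3) and 2 of beta subunits (Cacnb2 and Cacnb4). All 10 passed the filter on low counts in every comparison.

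Voltage-gated calcium channels open when the membrane depolarizes and let calcium into the cell. The alpha1 subunit forms the pore and sets the channel type, the cytoplasmic beta subunit brings the pore to the membrane and tunes its gating, and the extracellular alpha2delta subunit raises the number of channels at the surface and at release sites. Purkinje cells (PCs), the output neurons of the cerebellar cortex, carry most of their calcium current through the P-type channel formed by Cacna1a, and mutations of Cacna1a, Cacna2d2 or Cacnb4 cause ataxia in mice.

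RNA was sequenced from the cerebella of 20 C57BL/6J mice, each library holding 1 cerebellum. The groups at 25 weeks were 5 SCA7 140Q/5Q knock-in mice given AAV-shA4, 5 SCA7 140Q/5Q knock-in mice given AAV-shSCR and 4 WT mice without AAV. The groups at 9 weeks were 3 WT mice given AAV-shA4 and 3 WT mice without AAV. The study reports males for the sequenced mice given AAV-shSCR and the WT mice set against them. For the other sequenced groups it states no sex, though the SCA7 mice it weighed after either shRNA were males. SCA7 mice carry an expanded CAG repeat in 1 allele of Atxn7 and model spinocerebellar ataxia type 7. The AAV, of serotype PHP.eB, was injected into the blood of young mice and carried eGFP under a CMV promoter with an shRNA under an H1 promoter. The shRNA was A4, which is directed at CAG repeats, or a scrambled sequence (shSCR). This serotype reached most PCs but few granule neurons according to the study, and its untreated mice received saline. The labels give 9 and 25 weeks without a starting point, and these are used here as names of the groups. The study's text counts weeks from the injection, also with a number for the SCA7 mice that differs from their label, so the age of the mice is not taken from the labels. No SCA7 mouse without AAV and no WT mouse given AAV at 25 weeks was analysed here, so genotype and AAV cannot be told apart where SCA7 mice are set against WT mice. Age, time after injection, experiment and any difference in sex cannot be told apart between the groups of 9 and of 25 weeks.

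Between 31465586 and 54570503 reads were counted per library, and the members had between 1209 (Cacnb2) and 29402 (Cacna1a) reads in a library. Atxn7, the gene with the repeat, was at 45.6 to 53.4 CPM (normalised counts scaled to a common library size) with AAV-shSCR, 44.5 to 51.7 CPM with AAV-shA4 and 45.7 to 50.2 CPM in WT mice at 25 weeks, and these ranges overlapped. Gene counts add the reads of both Atxn7 alleles. Among 14 libraries of 25 weeks, 1 with AAV-shA4 (replicate 1) and 1 of WT (replicate 1) stood apart in Slc17a6, a glutamate transporter gene of cerebellar nuclei and brainstem neurons, at 74.5 and 80.2 CPM against 14.5 to 31.1 CPM in the other 12. Leaving out both changed neither the number of members past the adjusted p in any comparison of 25 weeks nor the number called.

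Because A4 is directed at CAG repeats, the reference transcripts of the members were searched for runs of CAG. Of the 10 members, Cacna1e had the longest run, 5 CAG in a row in its 3' UTR (chr1:154396484-154396498, minus strand, mm10), as long as the run in the coding sequence of the reference Atxn7 allele (chr14:14013156-14013170, plus strand). Cacna1b had 3 CAG in a row in its coding sequence (chr2:24719987-24719995, minus strand), and the other 8 had at most 2. Of all protein-coding genes, 1.61% had a run of 5 or more, 14.9% of 3 or more and 80.9% of 2 or more. The sites are printed 5′ to 3′ on the transcript strand with 6 bases on either side and the CAG run in capitals.
Atxn7: gcccggCAGCAGCAGCAGCAGccacag
Cacna1e: acaccgCAGCAGCAGCAGCAGttctga
Cacna1b: cgcaggCAGCAGCAGattgag
These runs are a description of the sequence and were not tested as sites of the shRNA. The expanded run of the knock-in allele is not in the reference.

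**Figure D1:**
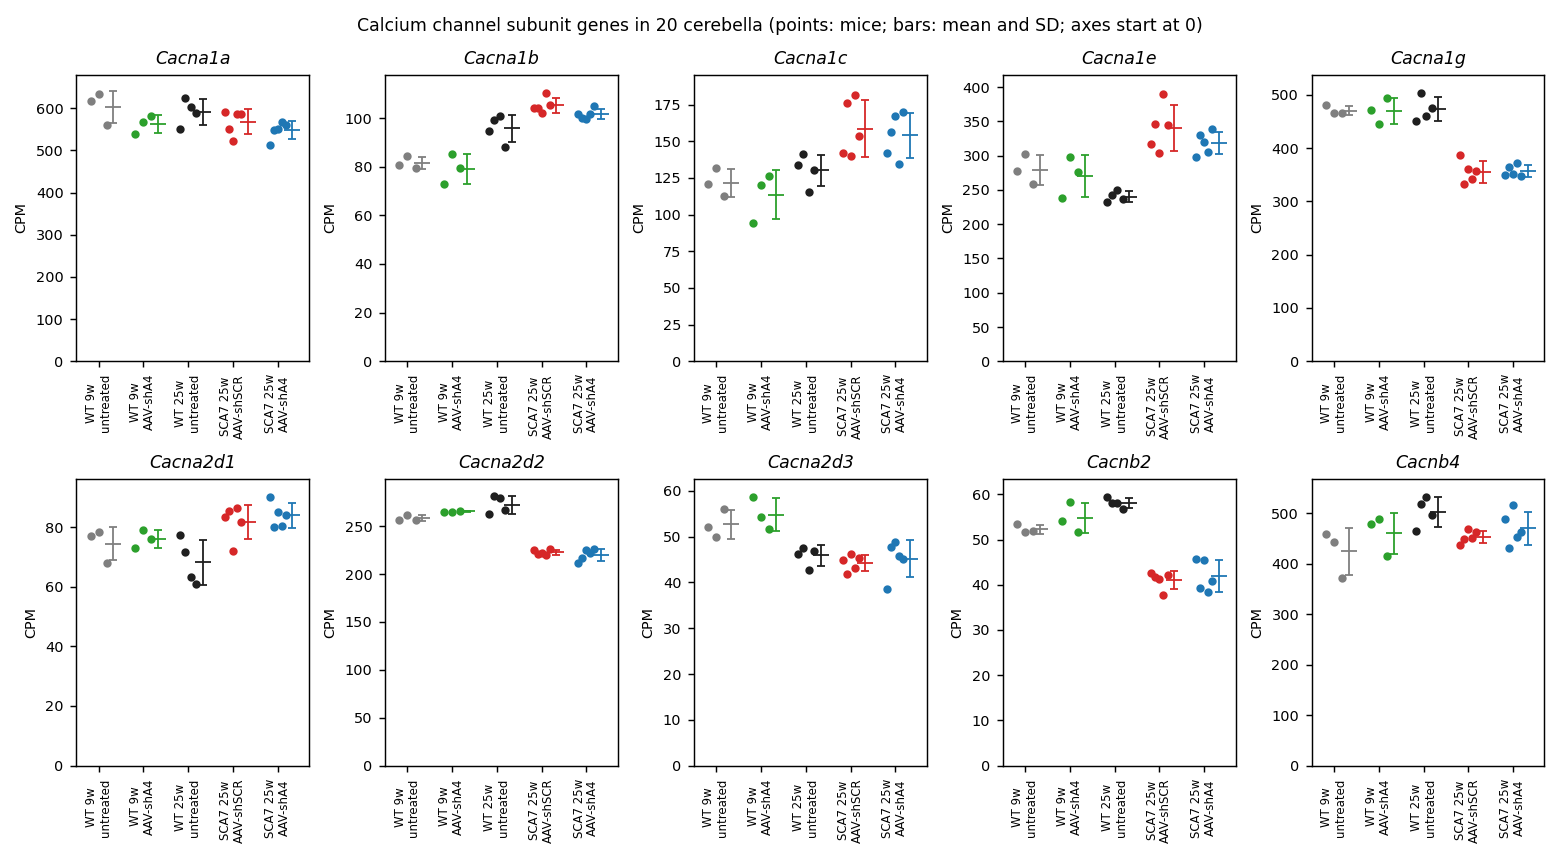
Normalised read counts (CPM, y axes from 0) of the 10 calcium channel subunit genes in each mouse (points) of the 5 conditions (x axes), with the mean and SD beside each set of points. Cacna1g, Cacna2d2 and Cacnb2 lie lower, and Cacna1e higher, in both SCA7 groups than in WT mice of 25 weeks.

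Levels were compared between genes as CPM per kb of median annotated transcript length. In WT mice of 25 weeks Cacna1a, the P/Q-type pore, had the highest level at 513 ± 26.7 CPM per kb (SD, n = 4). Cacnb4 (63.5 ± 3.74 CPM per kb), Cacna2d2 (62.9 ± 2.14) and Cacna1g (59.2 ± 2.86) followed, each overlapping its neighbour. Cacna1e (53.1 ± 1.69 CPM per kb) and Cacna2d3 (49.99 ± 2.39) came next and overlapped each other. Cacnb2 (31.9 ± 0.599 CPM per kb) and Cacna1b (24.1 ± 1.44) stood apart from their neighbours, whereas Cacna1c (18.9 ± 1.55) and Cacna2d1 (18.8 ± 2.09) did not differ beyond their spread. These levels depend on the length chosen. Cacna1a has 11 annotated transcripts with a median of 1.153 kb, against 7.926 kb for its longest coding transcript. By the longest coding transcript, Cacna1a was at 74.6 CPM per kb and Cacnb4 at 61.2. By the union of all exons, Cacnb4 was highest at 56.1 CPM per kb and Cacna1a at 51.8.

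By median transcript length, Cacna1e held the fifth place in the order in WT mice of 25 weeks and the second in both SCA7 groups, at 75.2 ± 7.37 CPM per kb with AAV-shSCR (n = 5) and 70.3 ± 3.68 with AAV-shA4 (n = 5). Cacna1g held the fourth place in these WT mice and the sixth in both SCA7 groups, at 44.5 ± 2.57 CPM per kb with AAV-shSCR and 44.6 ± 1.38 with AAV-shA4. Cacna1e was also second in WT mice without AAV at 9 weeks, where it overlapped the gene after it. These moves depend on the length too. By the longest coding transcript Cacna1e was in the fifth place and Cacna1g in the third in all 3 groups of 25 weeks. By the union of exons Cacna1g was again in the third place in these groups, and Cacna1e in the sixth in WT mice and the fifth in SCA7 mice.

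The first comparison asks which subunit genes differed between SCA7 mice given AAV-shSCR and WT mice at 25 weeks. Of the 10 members, 8 passed an adjusted p of 0.05 (edgeR's quasi-likelihood test, adjusted over 14862 genes), 4 higher (Cacna1b, Cacna1c, Cacna1e and Cacna2d1) and 4 lower (Cacna1g, Cacna2d2, Cacnb2 and Cacnb4) in SCA7 mice. Of all genes tested, 6.89% passed higher and 8.65% lower. The members were chosen with earlier results of these data known, so this contrast is a description and was not tested. They also had at least 1209 reads in every library, while the filter on all genes set a minimum count of 10. With the further limit of a fold change above 1.3, 1 member was called higher (Cacna1e) and 2 lower (Cacna1g and Cacnb2), against 1.35% and 2.66% of all genes. A limit of 1.2 added Cacna1c (higher) and Cacna2d2 (lower), against 2.28% and 4.4% of all genes. The groups did not overlap for 5 members, against 16.8% of all genes. The median log2 fold change of the members was -0.05 and that of all genes 0.00, since members moved in both directions.

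Cacna1e (chr1:154390731-154884501, minus strand), the pore of R-type channels, rose in SCA7 mice. The 5 mice given AAV-shSCR were at 317, 347, 304, 391 and 345 CPM, and the 4 WT mice at 232, 242, 250 and 237 CPM. Every SCA7 mouse lay above every WT mouse. On average this was 341 ± 33.4 CPM (SD, n = 5) against 240 ± 7.67 CPM (n = 4), a log2 fold change of 0.50 (SE 0.06, 95% interval 0.38 to 0.63, edgeR adjusted p = 1.21e-05).

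Cacna1g (chr11:94408391-94474198, minus strand), the pore of a T-type channel that opens at low voltage, fell. It was at 386, 333, 361, 342 and 357 CPM with AAV-shSCR and at 451, 504, 461 and 475 CPM in WT mice. No SCA7 mouse reached the lowest WT mouse. The log2 fold change was -0.41 (SE 0.04, 95% interval -0.50 to -0.32, edgeR adjusted p = 3.92e-06). Without WT replicate 2, the highest, it was -0.38 and no longer past the limit of a 1.3-fold change.

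The other alpha1 genes differed less. Cacna1a (chr8:84388440-84640246, plus strand) was at 592, 551, 523, 587 and 586 CPM with AAV-shSCR and at 551, 625, 602 and 589 CPM in WT mice. The groups overlapped, and the log2 fold change of -0.06 did not pass the test (SE 0.04, 95% interval -0.15 to 0.04, edgeR adjusted p = 0.41). Cacna1b, the N-type pore of transmitter release, was at 101.9 to 110 CPM (median 104) with AAV-shSCR and at 88.2 to 101 CPM in WT mice, without overlap and with a log2 fold change of 0.14 (SE 0.04, adjusted p = 0.017). Cacna1c, an L-type pore, was at 140 to 181.8 CPM (median 153) against 116 to 141 CPM, a log2 fold change of 0.28 (SE 0.09, adjusted p = 0.032) with overlap. The results for Cacna1b and Cacna1c lean on single mice: without WT replicate 4 neither passed (log2 fold changes 0.10 and 0.29), and Cacna1c was also lost, at 0.23 to 0.24, without WT replicate 3 or without AAV-shSCR replicate 2 or 4.

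Among the alpha2delta genes, Cacna2d2 (chr9:107399612-107529343, plus strand), whose loss causes the ataxia of ducky mice, fell. It was at 225, 221, 222, 220 and 226 CPM with AAV-shSCR and at 262, 281, 279 and 267 CPM in WT mice. The gap between the groups was wider than the spread within either. The log2 fold change of -0.29 (SE 0.03, 95% interval -0.35 to -0.23, edgeR adjusted p = 2.14e-06) was below the 1.3-fold limit. Cacna2d1 (chr5:15934691-16374511, plus strand), a receptor of gabapentin, rose, at 83.4, 85.4, 72.1, 86.5 and 81.8 CPM with AAV-shSCR against 77.3, 71.8, 63.1 and 61.0 CPM in WT mice. AAV-shSCR replicate 3 fell within the WT range, and the log2 fold change was 0.26 (SE 0.07, 95% interval 0.12 to 0.40, adjusted p = 0.012). Cacna2d3 was at 41.8 to 46.2 CPM (median 45.0) against 42.7 to 47.6 CPM, and its log2 fold change of -0.05 did not pass (95% interval -0.17 to 0.07, adjusted p = 0.63).

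Of the beta genes, Cacnb2 (chr2:14603088-14987908, plus strand) fell by 0.50 on the log2 scale (SE 0.05, 95% interval -0.61 to -0.39, edgeR adjusted p = 3.92e-06). It was at 42.6, 41.6, 41.3, 37.7 and 42.2 CPM with AAV-shSCR and at 59.3, 58.0, 58.2 and 56.7 CPM in WT mice. The highest SCA7 value lay far under the lowest WT value. Cacnb4 (chr2:52428320-52676831, minus strand), the beta gene mutated in lethargic mice and the more abundant one here per kb, was at 436, 448, 468, 450 and 462 CPM against 465, 519, 533 and 496 CPM. AAV-shSCR replicate 3 exceeded WT replicate 1, and the log2 fold change was -0.15 (SE 0.05, adjusted p = 0.043). It did not pass, at -0.16 to -0.12, when AAV-shSCR replicate 1, 2, 4 or 5 or WT replicate 2, 3 or 4 was left out.

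**Figure D2:**
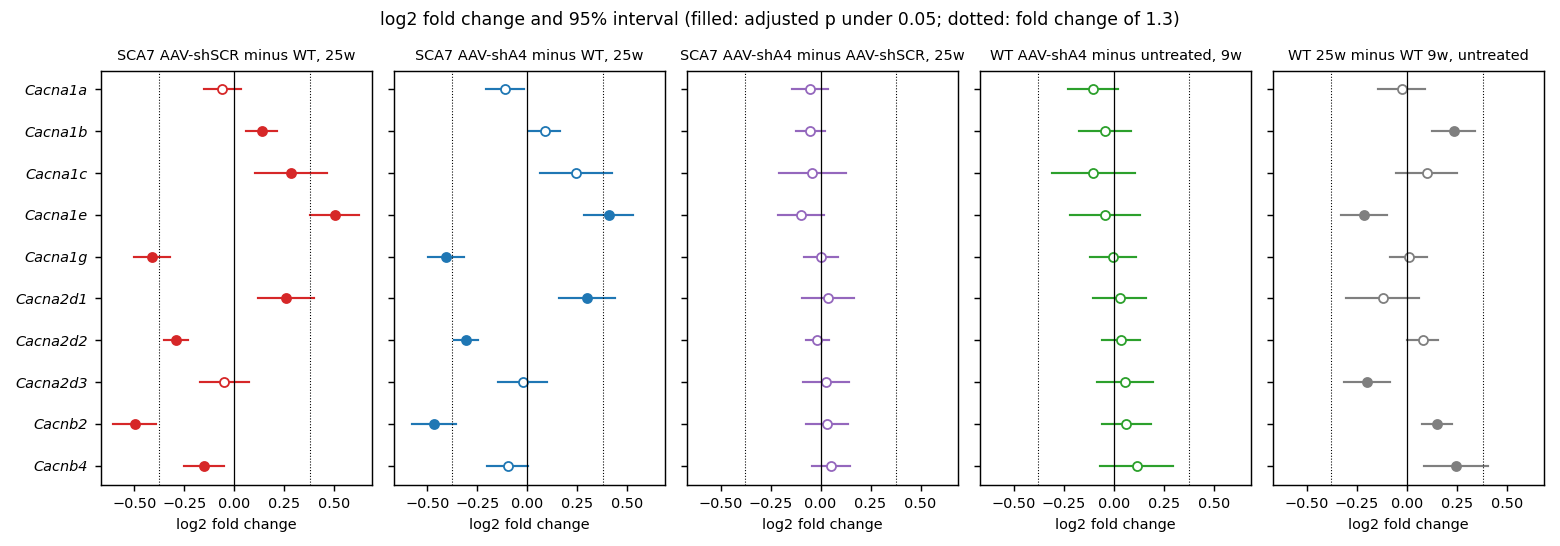
log2 fold changes (points) and 95% intervals (lines) of the 10 genes (y axis) in 5 comparisons (panels), with filled points where the adjusted p was under 0.05 and dotted lines at a fold change of 1.3. Cacna1e lies to the right and Cacna1g, Cacna2d2 and Cacnb2 to the left of 0 in both comparisons of SCA7 with WT mice, and the intervals of AAV-shA4 against AAV-shSCR all include 0.

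The same question was asked of SCA7 mice given AAV-shA4 against the same 4 WT mice, which the first comparison also used. Of the 10 members, 5 passed the adjusted p, 2 higher (Cacna1e and Cacna2d1) and 3 lower (Cacna1g, Cacna2d2 and Cacnb2), against 5.47% and 8.11% of all genes. Cacna1e was called higher and Cacna1g and Cacnb2 lower, against 1.18% and 2.27% of all genes. A limit of 1.2 added Cacna2d1 (higher) and Cacna2d2 (lower), against 2.01% and 3.82% of all genes. The groups did not overlap for 5 members, against 13.4% of all genes, and the median log2 fold change was -0.06 over the members and 0.01 over all genes.

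With AAV-shA4, Cacna1e was at 298, 331, 319, 306 and 338 CPM, again all above WT mice, a log2 fold change of 0.41 (SE 0.06, 95% interval 0.28 to 0.53, edgeR adjusted p = 0.00013). Cacna1g was at 349, 365, 351, 372 and 347 CPM, all below WT mice, a log2 fold change of -0.41 (SE 0.04, adjusted p = 4.71e-06). It was -0.37 and under the 1.3-fold limit without WT replicate 2. Cacnb2 was at 45.8, 39.4, 45.5, 38.4 and 40.8 CPM, all below WT mice, a log2 fold change of -0.47 (SE 0.05, adjusted p = 8.3e-06). These 3 genes were thus apart from WT mice in the same direction with either shRNA.

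Cacna2d2 was at 211, 216, 225, 222 and 226 CPM with AAV-shA4, all below WT mice, a log2 fold change of -0.31 (SE 0.03, edgeR adjusted p = 1.33e-06). Cacna2d1 was at 90.2, 80.0, 85.0, 80.5 and 84.1 CPM, all above WT mice, a log2 fold change of 0.30 (SE 0.07, adjusted p = 0.0055). Both alpha2delta genes stayed under the 1.3-fold limit. Cacna1a (512 to 568 CPM, log2 fold change -0.11, edgeR adjusted p = 0.11), Cacna1b (99.7 to 105 CPM, 0.09, adjusted p = 0.14), Cacna1c (135 to 170 CPM, 0.24, adjusted p = 0.07), Cacna2d3 (38.6 to 48.9 CPM, -0.02, adjusted p = 0.85) and Cacnb4 (431 to 516 CPM, -0.10, adjusted p = 0.21) did not pass. Cacna1a passed at -0.14 without WT replicate 1, and Cacna1c at 0.29 without AAV-shA4 replicate 4.

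Markers of PCs were lower in SCA7 mice, as were Cacna1g, Cacna2d2 and Cacnb2. All 9 PC marker genes reported here (Pcp2, Calb1, Car8, Itpr1, Ppp1r17, Slc1a6, Gng13, Rgs8 and Pcp4) passed lower against WT mice with AAV-shSCR (median log2 fold change -0.46) and with AAV-shA4 (-0.46). Their summed level was 6868 to 7689 CPM with AAV-shSCR, 6943 to 8120 CPM with AAV-shA4 and 9904 to 11193 CPM in WT mice of 25 weeks, and no marker was at 0. In bulk RNA, fewer cells of a type and less RNA per cell cannot be told apart. Markers of Golgi and unipolar brush cells (3 of 6), oligodendrocytes (4 of 8) and Bergmann glia and astrocytes (3 of 8 with AAV-shSCR, 5 of 8 with AAV-shA4) also passed lower in SCA7 mice, as did 2 of 8 granule cell markers with AAV-shSCR and 3 of 8 with AAV-shA4. Summed oligodendrocyte markers were at 4123 to 4964, 4574 to 5213 and 5617 to 6661 CPM with AAV-shSCR, with AAV-shA4 and in WT mice, and those of Bergmann glia and astrocytes at 3729 to 4114, 3723 to 4158 and 4738 to 5234 CPM. Their part in the members' differences was not tested.

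Each member was also set against the summed PC markers within its library, a ratio chosen after its values were seen. Ratios to the markers of other cell types were not computed. The mean log2 sum of the markers was 12.9 for either shRNA and 13.4 in WT mice of 25 weeks, so that a gene of the same CPM in both groups lay 0.50 (AAV-shSCR) or 0.46 (AAV-shA4) higher on this scale in SCA7 mice. In the mice given AAV-shSCR 76.8% of all genes tested lay above WT mice without overlap and 0.451% lay below. For AAV-shA4 these shares were 73% and 0.444%. Cacna1g had log2 ratios of -4.46 to -4.30 with AAV-shSCR, -4.53 to -4.32 with AAV-shA4 and -4.50 to -4.44 in WT mice, which overlapped. Cacnb2 had log2 ratios of -7.52 to -7.46, -7.67 to -7.24 and -7.59 to -7.38 in the same order and overlapped as well. Cacna2d2 was higher relative to the markers in SCA7 mice, with log2 ratios of -5.09 to -4.97 with AAV-shSCR and -5.17 to -5.04 with AAV-shA4, both above the -5.31 to -5.22 of WT mice. Cacna1a, whose own level did not pass the test, had log2 ratios of -3.85 to -3.55, -3.88 to -3.74 and -4.17 to -4.11. Cacna1e showed the widest separation of those given here, with -4.64 to -4.14, -4.68 to -4.46 and -5.53 to -5.38. The other 5 members also lay above WT mice of 25 weeks on this scale in both SCA7 groups, without overlap. This made 8 of 10 members above, a share near that of all genes, and it includes Cacna2d3, whose own log2 fold changes were -0.05 and -0.02.

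**Figure D3:**
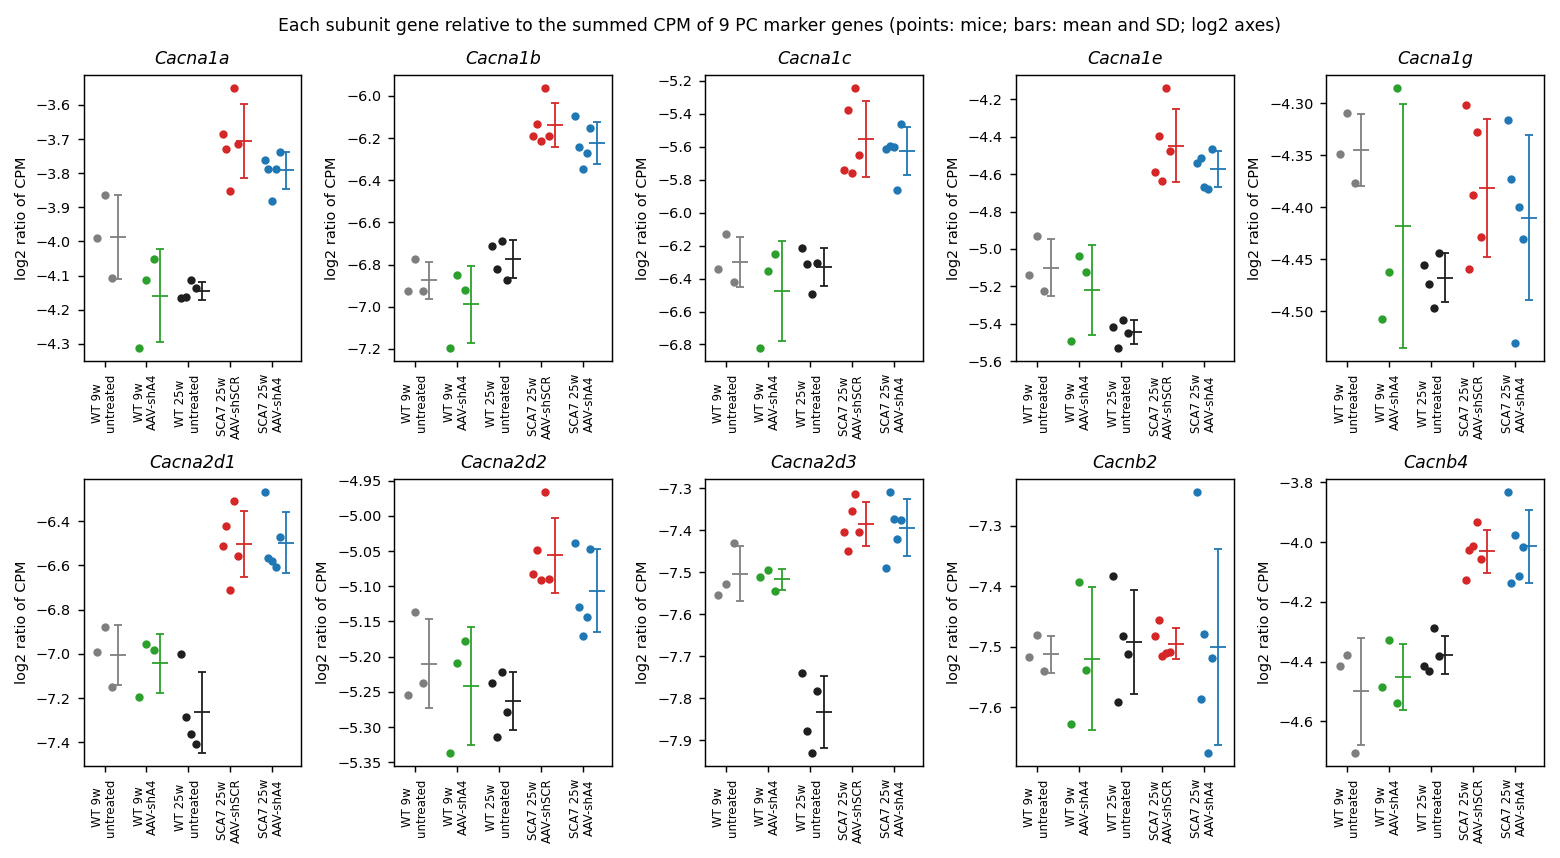
log2 ratio of each gene's CPM to the summed CPM of 9 PC marker genes in the same library (y axes, log2 scale) in the 5 conditions (x axes), with points for mice and bars for mean and SD. The SCA7 points overlap those of WT mice of 25 weeks for Cacna1g and Cacnb2 and lie above them for the other 8 genes, where a gene of unchanged CPM would lie 0.50 or 0.46 higher.

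The effect of the CAG-directed shRNA in SCA7 mice was read from AAV-shA4 against AAV-shSCR. None of the 10 members passed the adjusted p in either direction, where 0% of all genes passed higher and 0% lower by edgeR, and no member's groups were without overlap (1.49% of all genes). At an unadjusted p under 0.05, 0 members passed by edgeR, DESeq2 or limma-voom, against 8.22% of all genes by edgeR. Over all genes, DESeq2 put 23 past the adjusted p and limma-voom 0. The members' log2 fold changes ran from -0.10 (Cacna1e) to 0.05 (Cacnb4), and the lowest edgeR adjusted p was 0.65.

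The intervals bound what these mice could show. For Cacna1e the difference was -0.10 on the log2 scale (95% interval -0.21 to 0.02), for Cacna1g 0.00 (-0.08 to 0.09) and for Cacnb2 0.03 (-0.07 to 0.14). For Cacna2d2 it was -0.02 (95% interval -0.07 to 0.04) and for Cacna2d1 0.04 (-0.09 to 0.17). Over the 10 members the bounds of these intervals reached from -0.21 to 0.17. For Cacna1e, Cacna1g, Cacnb2, Cacna2d2 and Cacna2d1 the interval did not reach the size of the difference between AAV-shSCR and WT mice. Those log2 fold changes were 0.50, -0.41, -0.50, -0.29 and 0.26 in the same order. Cacna1b, Cacna1c and Cacnb4 had also passed with AAV-shSCR against WT mice, at 0.14, 0.28 and -0.15. Their intervals between the shRNAs were -0.12 to 0.02, -0.21 to 0.13 and -0.04 to 0.15. For Cacnb4 and Cacna1b the interval thus came close to the whole difference from WT mice.

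The effect of AAV-shA4 in WT mice was read at 9 weeks, where mice with AAV-shA4 were compared with mice without AAV. None of the 10 members passed the adjusted p, against 0.0543% of all genes higher and 0.0136% lower by edgeR, and 0 passed an unadjusted p under 0.05 by edgeR, DESeq2 or limma-voom (11.1% of all genes by edgeR). Over all genes, edgeR put 10 past the adjusted p, DESeq2 130 and limma-voom 12. The log2 fold changes ran from -0.10 (Cacna1a) to 0.11 (Cacnb4), with interval bounds from -0.31 to 0.30, and the lowest edgeR adjusted p was 0.52. Libraries with AAV-shA4 were shallower here, at 36245752 to 39208298 reads against 47455917 to 49212593.

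Only Cacna2d2 had groups that did not overlap, 1 of 10 members against 16% of all genes. It was at 265, 265 and 266 CPM with AAV-shA4 and at 257, 262 and 256 CPM without AAV, a log2 fold change of 0.04 (SE 0.04, edgeR adjusted p = 0.77). Cacna1e was at 238, 298 and 276 CPM with AAV-shA4 and at 277, 302 and 259 CPM without AAV. Its groups overlapped, at a log2 fold change of -0.05 (95% interval -0.22 to 0.13, adjusted p = 0.86). Cacna1g was at 471, 445 and 494 CPM against 480, 465 and 465 CPM, and Cacnb2 at 54.1, 58.3 and 51.7 CPM against 53.4, 51.6 and 51.9 CPM. Neither gene set the groups apart at 9 weeks.

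WT mice without AAV were compared between 25 and 9 weeks, with the same 4 mice of 25 weeks as controls as above. Of the 10 members, 5 passed the adjusted p, 3 higher (Cacna1b, Cacnb2 and Cacnb4) and 2 lower (Cacna1e and Cacna2d3) at 25 weeks, against 11.8% and 11.1% of all genes. No member was called, against 3.23% of all genes called higher and 1.91% lower. At an unadjusted p under 0.05, 6 members passed by edgeR, against 36.9% of all genes. For 6 members the groups did not overlap (33.8% of all genes), and the median log2 fold change was 0.04 over the members and 0.01 over all genes.

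Cacna1b was at 94.6, 99.1, 101 and 88.2 CPM at 25 weeks and at 80.6, 84.3 and 79.6 CPM at 9 weeks, a log2 fold change of 0.23 (SE 0.05, edgeR adjusted p = 0.0084). Cacnb2 rose by 0.15 (SE 0.03, adjusted p = 0.011) and Cacnb4 by 0.25 (SE 0.07, adjusted p = 0.035) on the log2 scale. Cacna1e fell, from 277, 302 and 259 CPM at 9 weeks to the 232 to 250 CPM given above, a log2 fold change of -0.21 (SE 0.05, adjusted p = 0.015). Cacna2d3, at 52.1, 49.9 and 56.1 CPM at 9 weeks and 46.3, 47.6, 42.7 and 47.0 CPM at 25 weeks, had a log2 fold change of -0.20 (SE 0.05, adjusted p = 0.022). The groups of these 5 genes did not overlap. Cacnb4 did not pass, at 0.16 to 0.28, when replicate 2 or 3 of 9 weeks or replicate 2, 3 or 4 of 25 weeks was left out, and Cacna2d3 did not pass, at -0.20 to -0.15, without replicate 1 or 3 of 9 weeks or replicate 3 of 25 weeks. Cacna1a (log2 fold change -0.03) and Cacna1g (0.01) did not pass.

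WT mice without AAV of 25 and of 9 weeks differed over the whole transcriptome. Genes were binned by the length of the union of all their exons. In this comparison the median log2 fold change ran from -0.09 over 1883 genes under 2 kb to 0.11 over 2664 genes over 8 kb. All members but Cacna2d2 (7.947 kb, in a bin with a median of 0.05) were over 8 kb. For them 0.11 is thus the median of genes of like length. Over the bins the median ran from -0.01 to 0.02 in the comparison of AAV-shSCR with WT mice. All 8 oligodendrocyte markers passed lower at 25 weeks, with summed levels of 5617 to 6661 CPM against 7926 to 8223 CPM at 9 weeks. Of the granule cell markers 3 of 8 passed lower, with summed levels of 5040 to 5914 CPM against 6246 to 7025 CPM, and of the blood markers 3 of 5, at 2.25 to 5.18 CPM against 4.47 to 8.81 CPM. Of the microglia markers 4 of 6 passed higher, with a median summed level of 176 CPM against 154 CPM and no overlap. In each other list of cell type markers at most 2 passed. Their part in the members' differences was not tested.

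Ratios of 2 members within a library do not depend on how libraries are scaled. A ratio also moves when only 1 of its 2 genes differs, so the ratios are not independent of the fold changes above. The share of pairs set apart over all genes was not computed. The log2 ratio of the beta genes, Cacnb2 to Cacnb4, was -3.58 to -3.36 with AAV-shSCR and -3.56 to -3.41 with AAV-shA4, below the -3.19 to -2.97 of WT mice at 25 weeks. At 9 weeks it was -3.14 to -3.00 with AAV-shA4 and -3.10 to -2.84 without AAV, which overlapped WT mice of 25 weeks. Among the alpha2delta genes, Cacna2d1 to Cacna2d2 was at -1.62 to -1.34, -1.46 to -1.23 and -2.14 to -1.76 in the same order, and Cacna2d3 to Cacna2d2 at -2.40 to -2.26, -2.45 to -2.18 and -2.71 to -2.50. In both ratios the SCA7 mice lay above WT mice of 25 weeks without overlap. At 9 weeks Cacna2d1 to Cacna2d2 was at -1.86 to -1.75 with AAV-shA4 and -1.91 to -1.74 without AAV, below the SCA7 mice and overlapping WT mice of 25 weeks. Cacna2d3 to Cacna2d2 showed the opposite, at -2.37 to -2.18 with AAV-shA4 and -2.39 to -2.19 without AAV, above WT mice of 25 weeks and overlapping the SCA7 mice.

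Of the pores, Cacna1e to Cacna1a was at log2 ratios of -0.90 to -0.59 with AAV-shSCR, -0.89 to -0.73 with AAV-shA4 and -1.37 to -1.25 in WT mice of 25 weeks. At 9 weeks this ratio was -1.18 to -0.93 with AAV-shA4 and -1.15 to -1.07 without AAV, between the WT mice of 25 weeks and the SCA7 mice. The ratio of Cacna1b to Cacna1a was -2.94 to -2.82 in WT mice without AAV at 9 weeks, -2.74 to -2.54 in those of 25 weeks and -2.50 to -2.36 with AAV-shSCR. These 3 ranges did not overlap, whereas the -2.88 to -2.74 of WT mice with AAV-shA4 at 9 weeks overlapped both groups of WT mice without AAV.

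**Figure D4:**
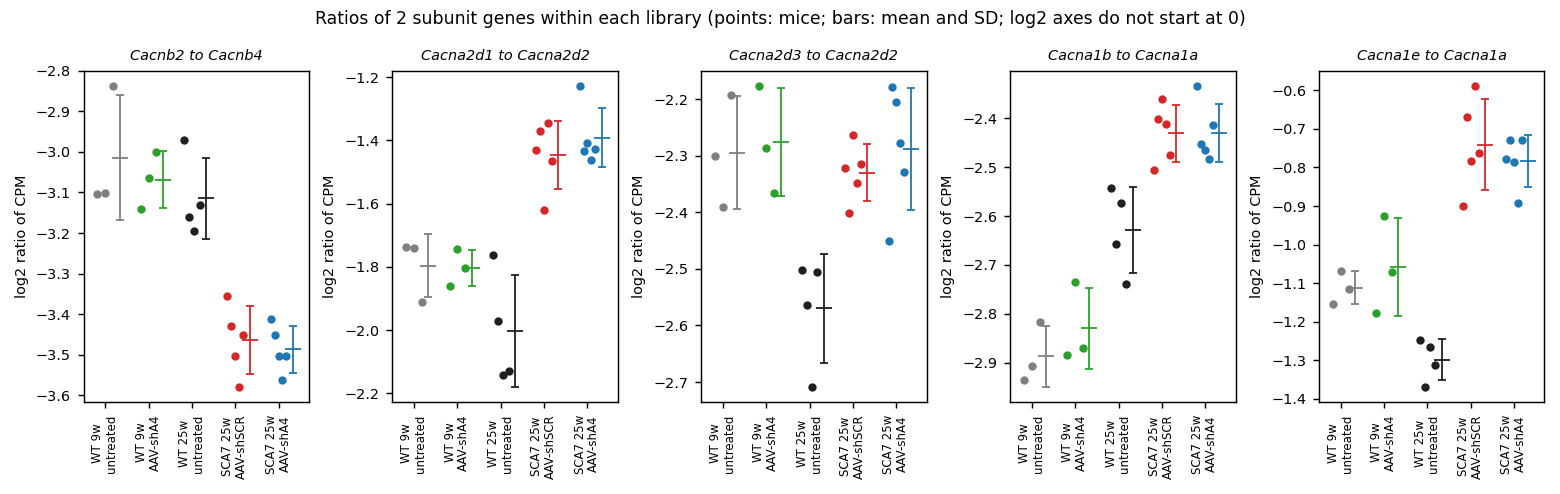
log2 ratio of the CPM of 2 subunit genes within each library (y axes, log2 scale that does not start at 0) for 5 pairs of genes (panels) in the 5 conditions (x axes), with points for mice and bars for mean and SD. In each pair both SCA7 groups lie apart from WT mice of 25 weeks.

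As a share of the summed level of the 5 alpha1 genes, in CPM per kb of median transcript length, Cacna1a made up 73.5% to 77.1% in every library. The share of Cacna1e was 7.59% to 8.16% in WT mice of 25 weeks, 10.3% to 12.5% with AAV-shSCR and 10.4% to 11.4% with AAV-shA4. The share of Cacna1g was 8.52% to 8.98%, 6.18% to 7.38% and 6.62% to 7.28% in the same order. By the longest coding transcript Cacna1a was at 43.5% to 45.8%, and Cacna1g at 32.9% to 34.2% in WT mice of 25 weeks and 24.5% to 28.6% with AAV-shSCR. The size of a share thus followed the length used, while the separation of SCA7 from WT mice for Cacna1g was seen with either.

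A list of 16 other calcium channel genes holds the remaining alpha1, alpha2delta and beta genes and the gamma genes, most of which are better known as partners of AMPA receptors. In it 13 were tested, and Cacna1f, Cacng1 and Cacng6 had too few reads. With AAV-shSCR against WT mice 3 passed higher and 3 lower, against 6.89% and 8.65% of all genes. The median over the list was -0.05 on the log2 scale. Cacna2d4, a retinal alpha2delta gene, rose by 0.41 (SE 0.13, adjusted p = 0.036) from a low 2.66 ± 0.19 CPM (n = 4), Cacng4 by 0.33 (adjusted p = 0.0036) and Cacna1d, an L-type pore, by 0.10 (adjusted p = 0.030). Cacng3 had a log2 fold change of -0.82 (SE 0.15, adjusted p = 0.0011), Cacng2, the stargazin gene, of -0.21 (adjusted p = 0.00055) and Cacng7 of -0.13 (adjusted p = 0.022). Of these 6 genes, Cacna2d4 and Cacng3 were also past the 1.3-fold limit.

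With AAV-shA4 against the same WT mice, Cacna2d4 (log2 fold change 0.56, adjusted p = 0.0064) and Cacng4 (0.39, adjusted p = 0.0010) were called higher, and Cacng2 passed lower at -0.20 (edgeR adjusted p = 0.00098). Of all genes, 5.47% passed higher and 8.11% lower. Cacng3 was at 10.2 ± 1.72 CPM (n = 5) with AAV-shA4, against 6.73 ± 1.11 CPM (n = 5) with AAV-shSCR and 11.8 ± 2.66 CPM (n = 4) in WT mice. The groups with the 2 shRNAs did not overlap, at a log2 fold change of 0.61 (SE 0.14, 95% interval 0.30 to 0.91), but its edgeR adjusted p was 0.33. None of the 13 passed between the 2 shRNAs or at 9 weeks. Between 25 and 9 weeks Cacna1d (0.17) and Cacna1i (0.27) passed higher and Cacng7 (-0.18), Cacnb3 (-0.42) and Cacna1s (-0.85, from 2.29 ± 0.49 CPM, n = 3, at 9 weeks) lower. There, 11.8% of all genes passed higher and 11.1% lower.

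A second list holds 31 partners of the channels, all of which were tested, among them scaffolds of the release site, SNARE proteins, calcium-binding regulators and small GTPases. With AAV-shSCR against WT mice 4 passed higher and 11 lower, against the 6.89% and 8.65% of all genes given above, and their median was -0.07 on the log2 scale. The called genes were Rims3, a release site scaffold (0.41, adjusted p = 3.6e-05), Cabp7, a calcium-binding protein (-0.56, adjusted p = 3.56e-05), and Stac (-0.73, adjusted p = 5.65e-06) and Stac2 (-0.69, adjusted p = 0.00062), adaptors that bind L-type channels. With AAV-shA4 1 passed higher and 10 lower, against 5.47% and 8.11% of all genes. Stac (-0.81) and Stac2 (-0.51) were called, Stac2 with overlap of the groups. None passed between the 2 shRNAs or at 9 weeks. Between 25 and 9 weeks 4 passed higher and 5 lower, against 11.8% and 11.1% of all genes. Of these, Bsn (0.39) and Stac2 (0.45) were called higher and Rims3 (-0.52) and Rem2 (-0.57) lower. The same WT mice of 25 weeks served wherever Rims3 or Stac2 was called. In them Rims3 was at 295 ± 28.05 CPM and Stac2 at 66 ± 14.94 CPM (n = 4). With AAV-shSCR (n = 5) they were at 390 ± 12.36 and 40.9 ± 1.87 CPM. Without AAV at 9 weeks (n = 3) they were at 422 ± 5.66 and 48.6 ± 3.36 CPM.

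Over the 14 libraries of 25 weeks, which differ in genotype and shRNA as well as in the mouse, the genes most like each called member in log2 CPM were listed as a description. For Cacna1g they were Homer3 (Pearson r 0.99), Plekhd1 (0.98) and Doc2b (0.98). For Cacnb2 they were Fam117a, Fam20c and Clmn (each 0.97), and for Cacna1e Fstl5, Zfp704 (each 0.96) and Hipk1 (0.95). Among the members Cacna1g and Cacna2d2 had an r of 0.95, and Cacna1e and Cacnb2 one of -0.92. These libraries share the difference between SCA7 and WT mice described above.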

How the data were processed

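The authors made the libraries from polyadenylated RNA with a stranded kit and sequenced single reads on an Illumina instrument. Per the labels and methods, reads were trimmed with cutadapt 1.10, freed of ribosomal RNA with Bowtie2 2.2.8, mapped to mm10 with STAR 2.5.3a and counted with HTSeq 0.6.1p1 on Ensembl gene models. Whether counting used the strand is not given in the sources used here. The deposited values are raw counts per gene without normalization. Genes on the opposite strand that share exon sequence with Cacna1a, Cacna2d2, Cacnb2 or Cacnb4 had 0 to 107 reads per library.

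Groups were taken from the labels. Symbols, types, positions and lengths came from GENCODE M21, which has 55141 of the genes. Counts were tested in R 4.3.3 with edgeR 4.0.16 (TMM, filterByExpr with minimum count 10 and minimum total 15, quasi-likelihood test) over protein-coding genes, with Benjamini-Hochberg adjustment. The 14 libraries of 25 weeks were fitted together (14862 genes), as were the 6 of 9 weeks (14733 genes) and the 7 of WT mice without AAV (14875 genes). A gene was called with a fold change above 1.3 at an adjusted p below 0.05. CPM use TMM over all 20 libraries, and log2 CPM had 0.5 added. DESeq2 1.42.0, limma 3.58.1 with voom, other scalings, filters and fold limits, a replicate block and single mice left out were alternatives. The steps were tested on simulated data.

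Libraries of 1 group differed by more than counting noise (chi-square per degree of freedom 4.87 to 26.1 over 32 pairs), so the spread between mice limits the precision. All 10 members were named in every comparison. Of the other calcium channel genes those past the adjusted p were named, of the partners those called, and for each called member the 3 genes most like it. The members and lists were chosen with earlier results of these data known. Another PC marker is not reported here and was left out of the list. Protein sequences were not analysed here.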

Additional observations from a re-analysis of the deposited data

Results flagged for a closer look

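Of 30 sets of a member and a condition with at least 4 mice, 1 had a mouse far from the others, where chance gives about 1 in 20 such sets. In SCA7 mice given AAV-shSCR, replicate 4 had 37.7 CPM of Cacnb2, the lowest value of its group, while the other 4 mice lay between 41.3 and 42.6 CPM. The gap to the nearest mouse was 0.737 of the range of the group. Without this mouse the log2 fold change of Cacnb2 against WT mice was -0.47 in place of -0.50. The same mouse had the highest Cacna1e (391 CPM), Cacna1c (181.8 CPM), Cacna1b (110 CPM) and Cacna2d1 (86.5 CPM) of its group. It also had the lowest Cacna2d2 (220 CPM), but not the lowest Cacna1g or Cacnb4.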

How the results depend on the processing

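Under the alternatives, 870 log2 fold changes of members were computed, of which 816 kept their direction and their side of the adjusted p, 26 fell short of it, 2 passed it newly and 26 changed sign, the last among values that did not pass. DESeq2, limma-voom, other scalings and filters gave the same numbers of members called. With a fold limit of 1.2, 5 members were called with AAV-shSCR against WT mice (adding Cacna1c and Cacna2d2) and 5 with AAV-shA4 (adding Cacna2d1 and Cacna2d2), against 2.28% and 2.01% of all genes called higher and 4.4% and 3.82% lower. With single mice left out, 2 to 3 were called in both comparisons, Cacna1g being lost without WT replicate 2, and 5 to 8 passed the adjusted p with AAV-shSCR (5 without WT replicate 4), 5 to 6 with AAV-shA4 and 3 to 5 between 25 and 9 weeks (3 without replicate 3 of either group). The cause was not tested.

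Replicate numbers did not pair the mice: the correlation of deviations between mice of 1 number ran from -0.258 to 0.557 at 25 weeks, with 3 of 13 pairs above 0.1, and 1 of 3 pairs at 9 weeks and 0 of 3 between 25 and 9 weeks were above it. With a replicate block, 6 members passed with AAV-shSCR against WT mice (Cacna1b and Cacna1c were lost) and 2 between 25 and 9 weeks (Cacna1b and Cacnb2). Robust estimation left 7 with AAV-shSCR, without Cacna1c.

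Of 10 genes, 0 kept their place in the order of levels in WT mice of 25 weeks with the union of exons and 4 with the longest coding transcript, a length added after the data were seen.

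The values that changed sign were these log2 fold changes. With AAV-shA4 against WT mice, Cacna2d3 was at 0.036 without the libraries of high Slc17a6 and at -0.055 to 0.031 with single mice left out. With AAV-shA4 against AAV-shSCR, Cacnb2 was at -0.002 without those libraries. In that comparison single mice left out gave -0.083 to 0.013 for Cacna1c, -0.019 to 0.035 for Cacna1g, -0.004 to 0.059 for Cacna2d1, -0.002 to 0.081 for Cacna2d3 and -0.002 to 0.061 for Cacnb2. At 9 weeks they gave -0.094 to 0.010 for Cacna1b, -0.187 to 0.014 for Cacna1c, -0.115 to 0.038 for Cacna1e, -0.042 to 0.040 for Cacna1g and -0.031 to 0.069 for Cacna2d1. Cacna1g was there at 0.001 with RLE scaling, upper quartile scaling or DESeq2 and at 0.00032 over all genes of the table. Between 25 and 9 weeks they gave -0.078 to 0.010 for Cacna1a and -0.021 to 0.030 for Cacna1g.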
